A study of Mus musculus with 12 samples.

Results

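The genes described here encode 10 negative regulators of ERK and related MAP kinases, namely the dual-specificity phosphatases Dusp1, Dusp2, Dusp4, Dusp5, Dusp6 and Dusp10 and the Ras pathway inhibitors Spry1, Spry2, Spred1 and Spred2. They were chosen by name, and all 10 were found among the 41457 genes of the 12 Treg libraries. Treg (CD4+ T cells that express the transcription factor FOXP3) had been sorted from spleen as RFP+CD4+ cells and kept overnight in 5 U/mL IL-2, either without further stimulation or with agonistic antibodies to CD3 (1 µg/mL) and CD28 (2 µg/mL). Each of the 4 groups held 3 libraries. CD18wt Treg came from littermates with intact CD18 (CD18wt/wt) that also carried Foxp3Cre, so that Cre was present in both genotypes. CD18Foxp3 Treg came from CD18 fl/fl mice crossed with Foxp3Cre, in which exon 3 of Itgb2, the gene of the β2-integrin chain CD18, is removed in cells that express or have expressed FOXP3. The RFP reporter by which Treg were sorted in all groups lay at another locus than Foxp3, so that RFP need not mean present FOXP3. The age of the mice was not in the labels. The comparisons asked how the ERK feedback genes responded to T cell receptor and CD28 stimulation, and whether that response or their resting level differed without CD18.

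T cell receptor signals reach ERK through Ras activators, the Raf kinases and MEK, and active ERK induces several of its own inhibitors. Dual-specificity phosphatases remove phosphate from both the threonine and the tyrosine that activate a MAP kinase. Dusp1, Dusp2, Dusp4 and Dusp5 act in the nucleus and are encoded by inducible genes, Dusp6 acts on ERK in the cytoplasm, and Dusp10 acts on JNK and p38. Sprouty and Spred proteins act upstream, at Ras and Raf, and Spred proteins bring the Ras GTPase-activating protein neurofibromin to the membrane.

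Libraries held between 10665174 and 19005482 reads within exons. One library stood apart, the third of the unstimulated CD18wt group. It had the lowest number of exon reads, and 3.32% of its exon and intron reads lay in introns, against 4.81% and 5.02% in the other 2 libraries of its group. All 10 members had their lowest level of the group in this library, as did 50.9% of the 10848 genes with 10 reads in each library of the group, and 6 of the 10 were at least 2-fold below both others, which held for 2.00% of those genes. Among these 6 was Spry2, which had 9, 11 and 2 reads and so was not among the 10848 genes. The immediate early genes Fos and Fosb were also low in it, with Fos at 30.3 TPM against 1844 and 1545 TPM. Of other early genes, Egr1, Egr3, Ier2, Myc and Phlda1 were lowest in this library as well, by smaller factors. Egr2 and Fosl1, the latter at 3 to 7 exon reads, were highest in it. Test results of the members that rest on this library are therefore given with and without it. The levels of the members were among the measures by which it stood apart. For exon and intron reads alike, their smaller SE and p-values without it are thus no independent support. The 6 Treg markers summed to 1336 to 1662 TPM in unstimulated and 2214 to 3678 TPM in stimulated libraries. Foxp3, Il2ra, Ctla4 and Ikzf2 were higher in all stimulated than in all unstimulated libraries, and Cd3e and Cd4 were lower. The summed level of 4 B cell markers was 22.6 to 30.4 TPM in unstimulated and 8.75 to 19.8 TPM in stimulated libraries, that of 4 CD8 and NK cell markers 25.3 to 35.7 and 12.6 to 25.8 TPM, that of 6 myeloid markers 1.58 to 15.9 and 0.204 to 2.52 TPM, and that of 2 erythroid markers 1.21 to 30.4 and 0 to 2.24 TPM. Of the defining markers, Ncr1 had no read in any library, Adgre1 had none in unstimulated libraries, Cd14 had none in unstimulated CD18wt libraries, and Itgax had none in either CD18Foxp3 group. The ranges of the Treg and B cell sums did not overlap between cultures, and those of the CD8 and NK cell, myeloid and erythroid sums did. Cd79b made up most of the B cell sum (21.6 to 29.2 against 8.17 to 17.9 TPM) and Cd8b1 most of the CD8 and NK cell sum, while Cd14 lay at no more than 0.221 TPM in unstimulated and at 0.123 to 0.870 TPM in stimulated libraries. The part of other cells in the results was not tested. In such bulk libraries fewer cells of a type and less RNA per cell cannot be told apart. Itgb2 had 465, 431 and 387 TPM in unstimulated CD18wt Treg and 229, 257 and 234 TPM in unstimulated CD18Foxp3 Treg, and in stimulated Treg 331, 329 and 330 TPM against 131, 202 and 183 TPM. The groups did not overlap in either culture (log2 fold change -0.85, SE 0.09, adjusted p = 0.00408, and -0.94, SE 0.17, adjusted p = 0.216, edgeR quasi-likelihood test; DESeq2 called Itgb2 lower in stimulated Treg as well, with -0.94 and an adjusted p of 3.66e-04), although the whole-gene count also covers the exons that remain after the deletion. The unstimulated call of Itgb2 was lost when any single library but the third CD18wt one was left out, with log2 fold changes of -0.92 to -0.80 over all omissions. It was also lost with limma on log2(TPM + 1) (-0.83, adjusted p = 0.0172).

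Among the members, expression per length (TPM) spanned more than 3 orders of magnitude in unstimulated CD18wt Treg. In unstimulated Treg Dusp1 was the highest in both genotypes, with a mean of 1012 ± 828 TPM (SD, n = 3) in CD18wt Treg and 539 ± 101 TPM (SD, n = 3) in CD18Foxp3 Treg, ranks 132 and 215 among all genes. Dusp2 came next in both genotypes, followed by Spry1, Dusp5, Dusp4, Dusp6, Dusp10, Spred2 and Spred1 in CD18wt Treg. In that group the libraries of each neighbouring pair overlapped from Dusp1 down to Spred2, so that only Spred2 and Spred1 were separate from the gene below them. In unstimulated CD18Foxp3 Treg the order of Spry1, Dusp4, Dusp10 and Dusp6 rested on overlapping libraries, whereas the other neighbours were separate. After stimulation Dusp4 was the highest member in both genotypes, with 303 ± 12.6 TPM in CD18wt and 263 ± 54.3 TPM in CD18Foxp3 Treg (SD, n = 3), and Dusp1 had moved to the sixth place. Dusp4, Dusp5 and Dusp2 were separate from each other in stimulated CD18wt libraries, while in stimulated CD18Foxp3 libraries Dusp4 overlapped Dusp5, and Dusp5 overlapped Dusp2. Spry2 was the lowest member in every group, at 0 to 14 exon reads per library.

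**Figure D1:**
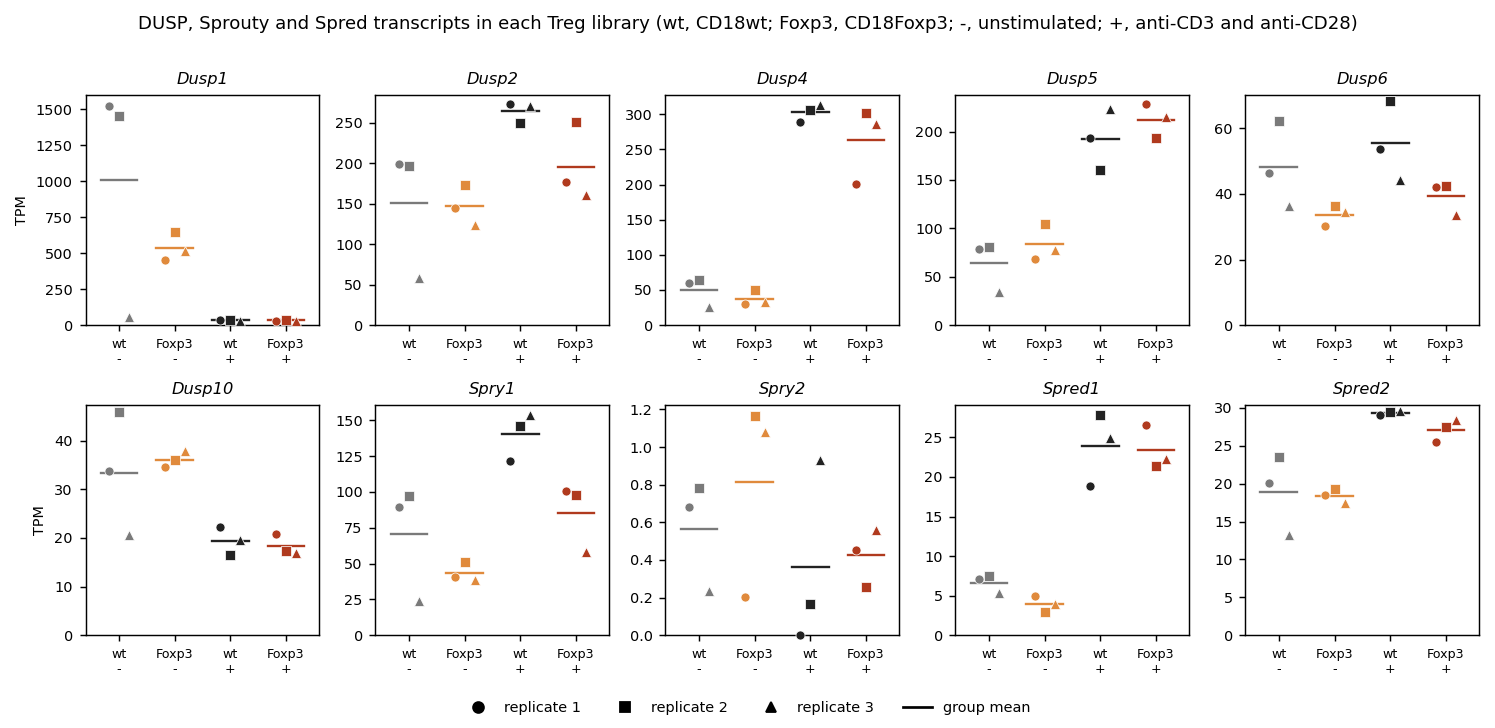
TPM (y axes, each from 0) of the 10 members in the 12 libraries, by genotype and culture (x axes); symbols are replicates and lines group means. Dusp1 lies between 453 and 1525 TPM in 5 of 6 unstimulated libraries and at 57.2 TPM in the third CD18wt library, and between 30.0 and 38.8 TPM after stimulation, while Dusp4, Dusp5 and Spred1 are higher in all stimulated than in all unstimulated libraries.

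In CD18wt Treg stimulation raised Dusp4, Dusp5 and Spred1 and lowered Dusp10, and in CD18Foxp3 Treg it raised the same 3 genes and lowered Dusp10 and Dusp1. A gene counted as called when it changed 1.5-fold or more with an adjusted p no higher than 0.01 over all genes tested (edgeR quasi-likelihood test, Benjamini-Hochberg). Dusp1 was lower in all stimulated than in all unstimulated CD18wt libraries as well, but was not called there (log2 fold change -5.17, SE 1.39, adjusted p = 0.0393). Of the 9 members tested in CD18wt Treg, 3 rose and 1 fell at the threshold, while 18.7% of the 11930 genes tested rose and 14.9% fell. Without the library that stood apart, 3 of 10 tested members rose and 2 fell, beside 17.7% and 13.5% of all genes tested. In CD18Foxp3 Treg 3 of 9 rose and 2 fell, beside 20.9% and 17.6% of 12019 genes. The median log2 fold change of the tested members was 0.43 in CD18wt Treg (0.06 without the library that stood apart) and 0.19 in CD18Foxp3 Treg, and that of all genes tested was 0.02 (0.03 without that library) and 0.01. With 3 libraries a group, these p-values measure the spread between the libraries that the labels call biological replicates.

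TPM rose more than the counts that had been scaled between libraries (TMM, which removes a shift shared by most genes). On the log2(TPM + 1) scale the median of the genes tested was 0.36 in CD18wt and 0.31 in CD18Foxp3 Treg, and 80.7% and 75.9% of the genes called there were higher after stimulation, against 55.7% and 54.3% with TMM. By TPM alone, 6 of the 10 members lay higher in every stimulated than in every unstimulated CD18wt library and 1 lower, beside 47.8% and 14.2% of the genes tested. In CD18Foxp3 Treg 5 lay higher and 2 lower, beside 47.9% and 19.2%. Fold changes below are from the TMM fit unless stated otherwise.

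Of the nuclear inducible phosphatases, Dusp4 rose most. Dusp4 (ENSMUSG00000031530, chromosome 8, 34807297 to 34819894, GRCm38, plus strand), which acts on ERK and JNK, had 59.3, 64.7 and 26.2 TPM in unstimulated and 289, 306 and 313 TPM in stimulated CD18wt Treg. In CD18Foxp3 Treg it had 29.5, 49.5 and 33.0 TPM, and 201, 302 and 286 TPM after stimulation. The stimulated libraries were far above all unstimulated ones in both genotypes. Dusp4 rose by a log2 fold change of 2.21 (SE 0.27, adjusted p = 1.75e-04) in CD18wt Treg and of 2.45 (SE 0.22, adjusted p = 2.36e-05) in CD18Foxp3 Treg, and by 1.93 (SE 0.15, adjusted p = 1.46e-06) in CD18wt Treg without the library that stood apart. Dusp5 (ENSMUSG00000034765, chromosome 19, 53529109 to 53542431, plus strand), a phosphatase specific for ERK, had 79.1, 80.9 and 33.8 TPM in unstimulated and 194, 161 and 223 TPM in stimulated CD18wt Treg. Its values in CD18Foxp3 Treg were 68.2, 105 and 77.7 TPM, and 228, 193 and 215 TPM after stimulation. Here too no libraries overlapped. The log2 fold change of Dusp5 was 1.18 (SE 0.27, adjusted p = 0.00601) in CD18wt and 0.98 (SE 0.17, adjusted p = 0.00105) in CD18Foxp3 Treg, and it was 0.90 (SE 0.14, adjusted p = 2.77e-04) in CD18wt Treg without the library that stood apart. The call in CD18wt Treg was lost without the first (1.17, adjusted p = 0.0229), the second (1.21, adjusted p = 0.0247) or the third (1.09, adjusted p = 0.0375) stimulated library, with a replicate block (1.25, adjusted p = 0.0101) and with upper-quartile scaling (1.09, adjusted p = 0.0105).

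Dusp1 (ENSMUSG00000024190, chromosome 17, 26505590 to 26508519, minus strand), an early phosphatase of p38, JNK and ERK, moved in the opposite direction. It had 1525, 1453 and 57.2 TPM in unstimulated and 38.8, 37.3 and 31.8 TPM in stimulated CD18wt Treg. In CD18Foxp3 Treg Dusp1 had 453, 650 and 514 TPM, and 30.0, 37.96 and 31.1 TPM after stimulation. Every stimulated library was below every unstimulated one, but the library that stood apart was close to the stimulated level. In CD18Foxp3 Treg Dusp1 fell by 4.40 on the log2 scale (SE 0.18, adjusted p = 6.52e-07). In CD18wt Treg the log2 fold change was -5.17 (SE 1.39, adjusted p = 0.0393), which did not pass the threshold, and without the library that stood apart it was -5.73 (SE 0.17, adjusted p = 3.03e-09), which did. The level of Dusp1 was among the measures that set that library apart, so the smaller SE is no independent support. With all libraries DESeq2 called Dusp1 lower (-5.19, adjusted p = 8.28e-06). Dusp2 (ENSMUSG00000027368, chromosome 2, 127336159 to 127338376, plus strand), a nuclear phosphatase of ERK and p38 in lymphocytes, had 199, 197 and 58.0 TPM in unstimulated and 274, 250.1 and 271 TPM in stimulated CD18wt Treg. In CD18Foxp3 Treg Dusp2 had 145, 174 and 124 TPM, and 177, 251 and 161 TPM after stimulation. The CD18wt groups did not overlap and the CD18Foxp3 groups did. Stimulation gave Dusp2 a log2 fold change of 0.43 (SE 0.43, adjusted p = 0.460) in CD18wt and 0.04 (SE 0.19, adjusted p = 0.872) in CD18Foxp3 Treg, and 0.06 (SE 0.13, adjusted p = 0.748) in CD18wt Treg without the library that stood apart.

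Dusp6 did not pass the threshold in either genotype. Dusp6 (ENSMUSG00000019960, chromosome 10, 99263231 to 99267489, plus strand), the cytoplasmic phosphatase of ERK, had 46.4, 62.3 and 36.2 TPM in unstimulated and 53.9, 68.3 and 44.3 TPM in stimulated CD18wt Treg. Its CD18Foxp3 values were 30.2, 36.2 and 34.6 TPM, and 42.0, 42.5 and 33.5 TPM after stimulation. The cultures overlapped in both genotypes. The log2 fold change of Dusp6 was -0.18 (SE 0.22, adjusted p = 0.533) in CD18wt and -0.14 (SE 0.14, adjusted p = 0.419) in CD18Foxp3 Treg, and -0.31 (SE 0.23, adjusted p = 0.303) in CD18wt Treg without the library that stood apart. Its sign turned on the log2(TPM + 1) scale, where it was 0.21 in both genotypes. Dusp10 (ENSMUSG00000039384, chromosome 1, 184013302 to 184075636, plus strand) had 33.7, 45.8 and 20.6 TPM in unstimulated and 22.2, 16.6 and 19.6 TPM in stimulated CD18wt Treg. In CD18Foxp3 Treg Dusp10 had 34.5, 35.9 and 37.8 TPM, and 20.8, 17.4 and 16.9 TPM after stimulation. The CD18Foxp3 groups did not overlap, and in CD18wt Treg it was the library that stood apart that reached into the stimulated range. Dusp10 fell by 1.18 on the log2 scale (SE 0.23, adjusted p = 0.00102) in CD18wt Treg and by 1.33 (SE 0.14, adjusted p = 5.41e-05) in CD18Foxp3 Treg, and by 1.40 (SE 0.18, adjusted p = 6.46e-05) in CD18wt Treg without that library. On the log2(TPM + 1) scale the fall in CD18wt Treg no longer passed the threshold. Dusp10 overlaps 1700056E22Rik on the opposite strand, which held 0 to 62 exon reads per library. The kit does not mark strand, so that reads of this pair cannot be told apart where they overlap.

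Spred1 rose in both genotypes, Spred2 did not pass the threshold, and Spry1 passed it only in alternative fits of CD18Foxp3 Treg. Spred1 (ENSMUSG00000027351, chromosome 2, 117121374 to 117182279, plus strand), a membrane-bound inhibitor of Ras, had 7.09, 7.50 and 5.37 TPM in unstimulated and 18.9, 27.8 and 24.9 TPM in stimulated CD18wt Treg. In CD18Foxp3 Treg Spred1 had 4.96, 2.99 and 3.98 TPM, and 26.6, 21.3 and 22.2 TPM after stimulation. The lowest stimulated library was above the highest unstimulated one in both genotypes. The log2 fold change of Spred1 was 1.46 (SE 0.20, adjusted p = 4.97e-05) in CD18wt and 2.19 (SE 0.20, adjusted p = 2.56e-05) in CD18Foxp3 Treg, and 1.36 (SE 0.21, adjusted p = 2.35e-04) in CD18wt Treg without the library that stood apart. Spred2 (ENSMUSG00000045671, chromosome 11, 19924375 to 20024026, plus strand), its paralog, had 13.2 to 23.5 TPM in the 6 unstimulated and 25.5 to 29.5 TPM in the 6 stimulated libraries. These TPM ranges did not overlap, yet the log2 fold change of Spred2 was 0.24 (SE 0.18, adjusted p = 0.287) in CD18wt and 0.19 (SE 0.12, adjusted p = 0.190) in CD18Foxp3 Treg (0.07, SE 0.16, adjusted p = 0.744 in CD18wt Treg without the library that stood apart). On the log2(TPM + 1) scale the change of Spred2 was 0.64 (SE 0.20) and 0.54 (SE 0.11) and was not called either.

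Spry1 (ENSMUSG00000037211, chromosome 3, 37639947 to 37644598, plus strand), a Sprouty protein that inhibits Ras and ERK signals in T cells, had 89.6, 97.3 and 24.1 TPM in unstimulated and 121, 146 and 154 TPM in stimulated CD18wt Treg. In CD18Foxp3 Treg Spry1 had 40.3, 51.0 and 38.4 TPM, and 100.5, 97.9 and 57.9 TPM after stimulation. Within each genotype no libraries of the 2 cultures overlapped. The log2 fold change of Spry1 was 0.62 in both genotypes, with an SE of 0.50 and an adjusted p of 0.362 in CD18wt and an SE of 0.22 and an adjusted p of 0.0354 in CD18Foxp3 Treg, and it was 0.23 (SE 0.15, adjusted p = 0.243) in CD18wt Treg without the library that stood apart. In CD18Foxp3 Treg Spry1 passed the threshold when the third stimulated library was left out (0.82, SE 0.16, adjusted p = 0.00216), with limma on log2(TPM + 1) (0.93, adjusted p = 0.00796), with no filter on low counts (0.63, adjusted p = 8.15e-05) and with a replicate block (0.59, adjusted p = 0.00572). Spry2 (ENSMUSG00000022114, chromosome 14, 105891947 to 105896819, minus strand) had too few reads to be tested for stimulation with all libraries, and in CD18wt Treg without the library that stood apart its log2 fold change was -1.31 (SE 1.14, adjusted p = 0.380). It held 2 to 11 exon reads in unstimulated and 0 to 10 in stimulated CD18wt libraries, and 3 to 14 and 3 to 6 in CD18Foxp3 libraries. Where the count was 0 the true level may correspond to as many as 3 reads, a limit that covers counting error only.

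**Figure D2:**
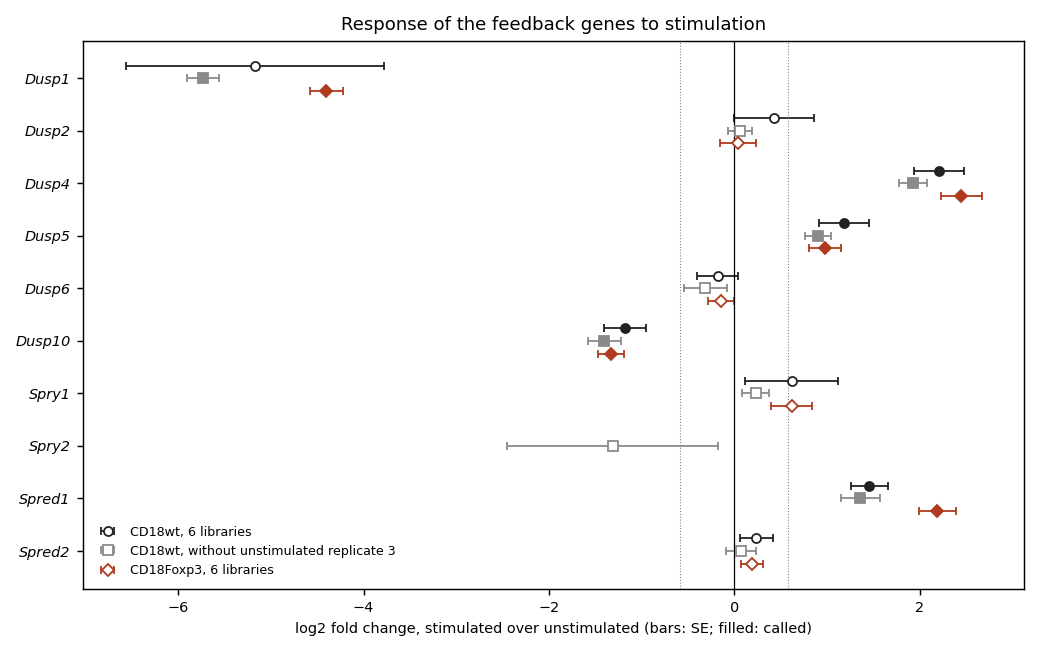
Log2 fold changes of the members between stimulated and unstimulated Treg (x axis; edgeR, TMM) in CD18wt Treg with all libraries or without the third unstimulated one, and in CD18Foxp3 Treg; bars are SE, filled symbols passed the threshold and dotted lines mark a 1.5-fold change. Dusp4 lies at 2.21 and 2.45 and Spred1 at 1.46 and 2.19, whereas Dusp1 lies at -5.17 with a wide bar in CD18wt and at -4.40 in CD18Foxp3 Treg.

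Promoters of 9 of the 10 members were found in a RefSeq table (build GRCm38.p6) that gives 250 bases before and 50 after the start of each gene. They were searched on both strands for AP-1 (TGANTCA), CRE (TGACGTCA), EGR (GCGNGGGCG), ETS (CCGGAAG), the CArG box of serum response factor and kappaB. Matches lay in 3 of the 9, and the stretches that hold them are shown because their genes moved differently on stimulation: Dusp1 fell, Dusp5 rose and Dusp2 did not pass the threshold. Each stretch has 60 bases, 5′ to 3′ on the strand of the gene, with the match in capitals.
Dusp1 (chr17:26508583-26508642, minus strand): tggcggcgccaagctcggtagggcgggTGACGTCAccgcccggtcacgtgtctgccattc
Dusp5 (chr19:53529043-53529102, plus strand): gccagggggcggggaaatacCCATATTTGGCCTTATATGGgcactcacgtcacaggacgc
Dusp2 (chr2:127336035-127336094, plus strand): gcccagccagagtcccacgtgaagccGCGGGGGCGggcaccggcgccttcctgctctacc
The capitals mark a CRE in Dusp1, 2 adjoining CArG boxes in Dusp5 that do not overlap, and an EGR match in Dusp2. Of all 32851 promoters in the table, 1.79% held a CRE, 1.63% a CArG box and 5.55% an EGR match. AP-1 (7.81% of all promoters), ETS (8.86%) and kappaB (5.80%) had no match in these 9 windows, which says only that those letters are not in them. The RefSeq start can differ from the gene coordinates given above. For Dusp10 the window (chromosome 1, 184034131 to 184034430) lies within the gene and not at its start as given above. That of Spred1 (chromosome 2, 117120821 to 117121120) ends before the gene begins. A match is a description of the sequence, and no binding was measured in these samples.

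Reads within introns gave a second count of the same genes. Such reads come from RNA that is not yet spliced or from other transcripts that cross an intron. Intron reads of Dusp10, Dusp5, Dusp4 and Dusp1 fell in CD18Foxp3 Treg, so that for Dusp4 and Dusp5 intron and exon reads moved in opposite directions. Dusp5 had 690, 598 and 336 intron reads in unstimulated and 160, 175 and 133 in stimulated CD18Foxp3 libraries, a log2 fold change of -2.34 (SE 0.20, adjusted p = 1.73e-13). Dusp4 had 180, 123 and 90 intron reads before and 69, 63 and 46 after stimulation, a log2 fold change of -1.69 (SE 0.26, adjusted p = 2.27e-07). The share of intron reads among the reads of the gene went from between 21.9% and 36.4% to between 4.29% and 6.18% for Dusp5, and from between 13.6% and 23.8% to between 1.13% and 1.94% for Dusp4. Both shares fell without overlap.

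The fall of the intron reads of Dusp10 was larger than that of its exon reads. Dusp10 had 579, 418 and 339 intron reads in unstimulated and 17, 8 and 5 in stimulated CD18Foxp3 libraries, a log2 fold change of -6.02 (SE 0.27, adjusted p = 5.03e-27). Intron reads of Dusp1, a gene with short introns, numbered 42, 59 and 43 before stimulation and 0 in each of the 3 libraries after it. Against the limit of 3 reads per library this is at least 18.2-fold lower, from a mean of 56.4 intron reads per 1e6 intron reads of the library. In total 4 of the 8 members tested in CD18Foxp3 Treg fell in intron reads and 0 rose at the threshold, while 15.4% of 10260 genes tested fell and 15.0% rose, and 5 of the 8 had an unadjusted p under 0.05, as did 48.3% of all genes. The fifth was Spred1, with 6, 13 and 9 intron reads before and 48, 28 and 23 after, which did not pass the threshold (log2 fold change 1.19, SE 0.53, adjusted p = 0.0639). Spry1 had 88, 74 and 54 and then 114, 65 and 42 intron reads, a log2 fold change of -0.57 (SE 0.29, adjusted p = 0.108). Dusp6 and Spry2 had too few intron reads to be tested. The log2 fold change of the intron reads of Dusp2 was 0.58 (SE 0.46, adjusted p = 0.331) and that of Spred2 was -0.35 (SE 0.26, adjusted p = 0.296).

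In CD18wt Treg the intron counts depended on the library that stood apart. Dusp5 had 635, 327 and 12 intron reads in unstimulated and 69, 34 and 184 in stimulated CD18wt libraries. Dusp10 had 486, 453 and 12 before and 0, 6 and 18 after, and Dusp1 had 154, 90 and 11 before and 0, 7 and 1 after. In each gene the third unstimulated library was the low one. With it, Dusp1 passed the threshold (log2 fold change -5.15, SE 0.86, adjusted p = 0.00119), as 1 of 8 members tested, beside 5.09% of 9492 genes that fell and 2.71% that rose. Dusp10 (-5.58, SE 1.31, adjusted p = 0.0404), Dusp5 (-2.13, SE 1.01, adjusted p = 0.220) and Dusp4 (-0.95, SE 0.45, adjusted p = 0.151) did not pass it. Without this library 3 of 9 members fell and 0 rose, beside 6.10% and 3.66% of 10860 genes, with log2 fold changes of -6.09 for Dusp10 (SE 0.50, adjusted p = 3.35e-08), -5.58 for Dusp1 (SE 0.68, adjusted p = 2.30e-06) and -2.65 for Dusp5 (SE 0.40, adjusted p = 8.08e-05). Leaving out the third stimulated library instead ended the call of Dusp1, with a log2 fold change of -4.57 (SE 0.95, adjusted p = 0.0135).

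**Figure D3:**
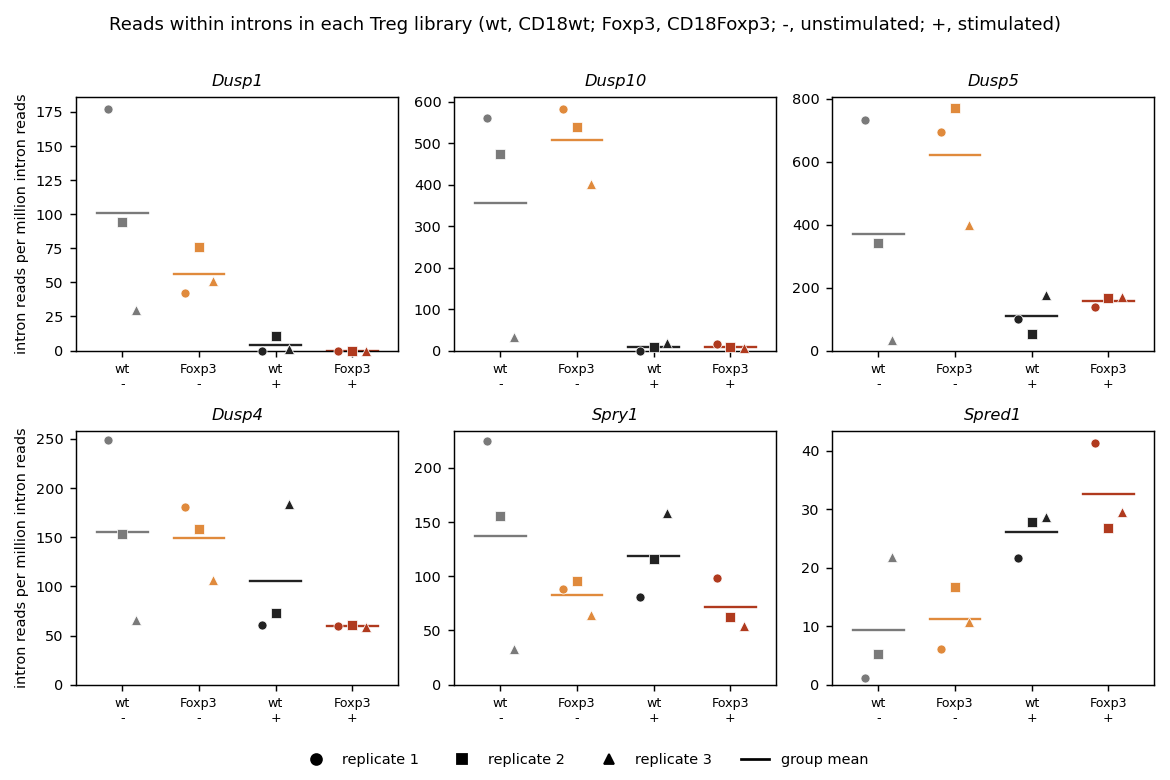
Reads within introns of 6 members, scaled to the total intron reads of the library (y axes, each from 0), by genotype and culture (x axes); symbols are replicates and lines group means. Dusp1, Dusp4, Dusp5 and Dusp10 are lower in all stimulated than in all unstimulated CD18Foxp3 libraries, and the third unstimulated CD18wt library is the lowest of its group in every panel but that of Spred1.

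Between genotypes no member passed the threshold in either culture in the edgeR fit with all libraries, while with no filter on low counts Spred1 was called lower in unstimulated CD18Foxp3 Treg (-0.76, SE 0.19, adjusted p = 0.00699). In unstimulated Treg 0 of 10 members were called by edgeR, DESeq2 or limma, beside 0.0507% of the 11829 genes tested called higher and 0.0845% called lower by edgeR, and 2 members (Spred1 and Dusp6) had an unadjusted p under 0.05, as did 9.59% of all genes. In stimulated Treg 0 of 9 were called by the 3 tools, beside 0% of 11930 genes by edgeR, and 3 members (Dusp2, Spry1 and Dusp6) had an unadjusted p under 0.05, as did 4.89% of all genes. In TPM, Dusp6 and Spred1 lay lower in every CD18Foxp3 than in every CD18wt unstimulated library, beside 6.90% of the genes tested, and Dusp6, Spry1 and Spred2 did so in stimulated libraries, beside 4.41%. No member lay higher in every CD18Foxp3 library, beside 8.74% of the genes in unstimulated and 5.02% in stimulated Treg. The median log2 difference of the members was -0.25 in unstimulated and -0.12 in stimulated Treg, and that of all genes tested was 0.00 to 2 decimals in both.

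Spry1 was lower in CD18Foxp3 Treg by a similar amount in both cultures, without passing the threshold. Between genotypes Spry1 had a log2 fold change of -0.72 (SE 0.54, adjusted p = 0.776) in unstimulated and -0.71 (SE 0.21, adjusted p = 0.724) in stimulated Treg. All 3 stimulated CD18Foxp3 libraries, at 57.9 to 100.5 TPM, were below the 3 CD18wt libraries at 121 to 154 TPM. In unstimulated Treg the groups overlapped through the CD18wt library that stood apart, and without that library Spry1 was called lower, by 1.10 on the log2 scale (SE 0.12, adjusted p = 6.10e-04). Dusp1 was called as well in that fit, with 453 to 650 TPM in CD18Foxp3 against 1453 and 1525 TPM in CD18wt Treg (log2 fold change -1.46, SE 0.15, adjusted p = 0.00940, against -0.90, SE 1.17 and adjusted p = 0.877 with all libraries, where the sign turned to 0.08 on the log2(TPM + 1) scale). These were 2 of 10 members, beside 0.256% of 12123 genes called lower and 0.107% called higher in the fit without it, and the median of the members was then -0.55. This fit rests on 2 CD18wt libraries, and the level of these genes was among the measures by which the library stood apart.

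Dusp6 was lower in CD18Foxp3 Treg by 0.54 on the log2 scale (SE 0.16, adjusted p = 0.242) in unstimulated and by 0.50 (SE 0.21, adjusted p = 0.959) in stimulated Treg. Its unstimulated ranges only just separated, with 36.24 TPM in the lowest CD18wt and 36.23 TPM in the highest CD18Foxp3 library. Spred1 had a log2 fold change of -0.76 (SE 0.20, adjusted p = 0.165) in unstimulated and of -0.03 (SE 0.20, adjusted p = 0.998) in stimulated Treg. Without the library that stood apart Dusp6 had -0.68 (SE 0.12, adjusted p = 0.0130) and Spred1 -0.86 (SE 0.19, adjusted p = 0.0390), short of the threshold. Dusp2 had -0.05 (SE 0.50, adjusted p = 0.990) in unstimulated and -0.43 (SE 0.17, adjusted p = 0.949) in stimulated Treg. For Dusp4 the log2 fold changes were -0.44 (SE 0.38, adjusted p = 0.797) and -0.20 (SE 0.17, adjusted p = 0.998). Without the library that stood apart the unstimulated values were -0.41 (SE 0.14, adjusted p = 0.241) for Dusp2 and -0.72 (SE 0.24, adjusted p = 0.298) for Dusp4. Dusp5, Dusp10 and Spred2 differed by 0.35, 0.09 and -0.06 in unstimulated and by 0.16, -0.06 and -0.11 in stimulated Treg on the log2 scale, and without that library the unstimulated differences were 0.07, -0.13 and -0.23, so that the sign of Dusp10 turned. Spry2 was tested in unstimulated Treg only, with a log2 fold change of 0.43 (SE 0.76, adjusted p = 0.910), and 0.14 (SE 0.81) without that library. Dusp1 had -0.12 (SE 0.18, adjusted p = 0.998) in stimulated Treg.

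**Figure D4:**
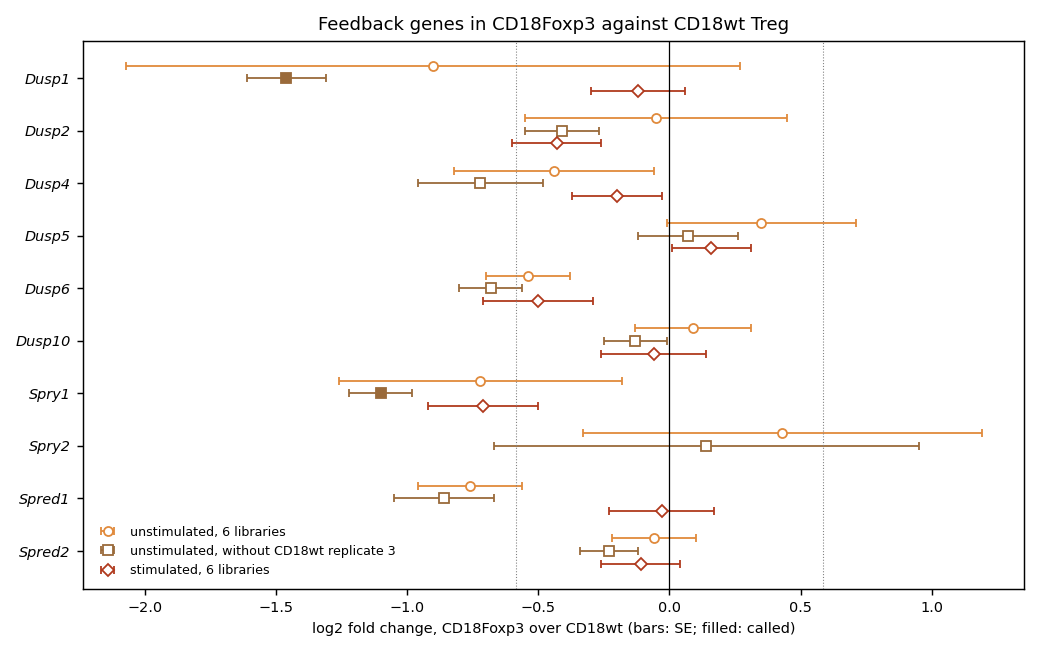
Log2 fold changes of the members between CD18Foxp3 and CD18wt Treg (x axis; edgeR, TMM) in unstimulated Treg with all libraries or without the third CD18wt one, and in stimulated Treg; bars are SE, filled symbols passed the threshold and dotted lines mark a 1.5-fold change. Spry1 lies at -0.72 and -0.71 with all libraries, and Spry1 at -1.10 and Dusp1 at -1.46 are the only filled symbols, both without that library.

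Whether the response to stimulation differed between genotypes was tested by the interaction over all 12 libraries, as the response in CD18Foxp3 less that in CD18wt Treg. No member was called by edgeR, DESeq2 or limma, beside 0% of 12636 genes by edgeR. Spred1 was the 1 member with an unadjusted p under 0.05 (interaction 0.73 on the log2 scale, SE 0.29, adjusted p = 0.987), as were 3.84% of all genes. The interaction of Dusp1 was 0.77 (SE 1.20, adjusted p = 0.987) with all libraries and 1.33 (SE 0.23, unadjusted p = 3.80e-05, adjusted p = 0.299) without the library that stood apart. Here too the level of Dusp1 was among the measures that set that library apart, so the smaller values are no independent support. Spry2 had the widest error (-0.26, SE 1.38), and the other 7 members lay between -0.39 (Dusp2, SE 0.48) and 0.23 (Dusp4, SE 0.38). Without the library that stood apart, when 0 of 10 members and 0% of 12944 genes were called, Spred1 had 0.82 (SE 0.30, unadjusted p = 0.0158, adjusted p = 0.992), Spry2 0.04 (SE 1.37), Spry1 0.38 (SE 0.29), and the 6 members besides these and Dusp1 lay between -0.03 (Dusp2, SE 0.24) and 0.51 (Dusp4, SE 0.28).

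Of 10 further DUSP, Sprouty and Spred genes, 7 were tested for stimulation, and 5 rose and 0 fell in each genotype, beside 18.7% and 14.9% of all genes tested in CD18wt and 20.9% and 17.6% in CD18Foxp3 Treg. These shares of all genes hold for the lists below as well. Dusp16, which acts on JNK and p38, rose by 1.35 on the log2 scale (SE 0.22, adjusted p = 2.30e-04; 2.67 ± 0.511 to 8.94 ± 1.07 TPM, SD, n = 3) in CD18wt and by 2.16 (SE 0.17, adjusted p = 1.08e-05) in CD18Foxp3 Treg. Dusp22 rose by 1.48 (SE 0.33, adjusted p = 0.00225) and 1.96 (SE 0.24, adjusted p = 1.28e-04), and Dusp3 by 2.06 (SE 0.54, adjusted p = 0.00653) and 2.01 (SE 0.46, adjusted p = 0.00497). Dusp9 was called in CD18wt Treg (3.07, SE 0.64, adjusted p = 0.00140) and Spry4 in CD18Foxp3 Treg (2.85, SE 0.65, adjusted p = 0.00475), both at under 4 TPM. Without the library that stood apart 4 rose in CD18wt Treg, and Dusp3 was no longer called (1.91, adjusted p = 0.0198). Dusp3 also lost its call in CD18wt Treg without the first stimulated (1.47) or the first (2.26) or second (2.05) unstimulated library, and in CD18Foxp3 Treg without the third stimulated (1.46) or any unstimulated library (1.72 to 2.27). In CD18wt Treg Dusp22 lost its call without the third stimulated (1.23) or the first unstimulated library (1.33), and Dusp9 without the second unstimulated one (2.90). Spry4 lost it without the second (2.82) or the third (2.72) stimulated or the second (2.61) or the third (2.55) unstimulated CD18Foxp3 library. The median log2 fold change of the 7 was 1.48 in CD18wt (1.60 without that library) and 1.96 in CD18Foxp3 Treg.

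Of 15 genes of the ERK cascade, from Ras activators to ERK, 1 rose and 2 fell in CD18wt Treg (1 and 1 without the library that stood apart), and 0 rose and 2 fell in CD18Foxp3 Treg, with medians of 0.00 and -0.01. Among the called genes were Rasgrp1, the Ras activator downstream of diacylglycerol (-0.77, SE 0.16, adjusted p = 0.00122 in CD18wt, and -0.60, SE 0.11, adjusted p = 0.00150 in CD18Foxp3 Treg), Hras (0.65, SE 0.18, adjusted p = 0.00925) in CD18wt Treg, and the adaptor Grb2 (-0.61, SE 0.12, adjusted p = 0.00238) in CD18Foxp3 Treg. Of these named calls only that of Rasgrp1 in CD18wt Treg held when any one library of its comparison was left out. Hras lost its call without the first (0.74) or second (0.43) stimulated or the first (0.55) or second (0.65) unstimulated CD18wt library. In CD18Foxp3 Treg Rasgrp1 lost it without the second (-0.58) or the third (-0.57) stimulated or the first unstimulated library (-0.57), and Grb2 without the first stimulated (-0.53) or any unstimulated one (-0.64 to -0.60), whereas Hras (0.84) was called there without the first stimulated library. Among 8 JNK and p38 kinases Map2k3, which activates p38, rose by 2.20 (SE 0.18, adjusted p = 1.24e-06) and 2.22 (SE 0.13, adjusted p = 2.65e-06), and Map2k6, its relative, fell, with -1.71 (SE 0.29, adjusted p = 3.30e-04) and -1.89 (SE 0.21, adjusted p = 7.95e-05). Mapk14, the gene of p38α, fell by 0.70 (SE 0.10, adjusted p = 2.87e-04) in CD18Foxp3 Treg, so that 1 rose and 1 fell in CD18wt (also without the library that stood apart) and 1 rose and 2 fell in CD18Foxp3 Treg. The medians of these 8 were 0.13 and 0.04.

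Other genes that restrain Ras or ERK moved in both directions. Of 14, 4 rose and 5 fell in CD18wt and 3 rose and 4 fell in CD18Foxp3 Treg, with medians of 0.02 and 0.25. Dgka, the diacylglycerol kinase that limits Ras activation, fell, with -1.42 (SE 0.14, adjusted p = 3.41e-06) and -1.68 (SE 0.11, adjusted p = 4.18e-06), from 304 ± 14.5 to 152 ± 22.4 TPM in CD18wt Treg (SD, n = 3). Rasa3, a GTPase-activating protein, fell, with -1.47 (SE 0.16, adjusted p = 9.15e-06) and -1.66 (SE 0.12, adjusted p = 8.05e-06). Nf1, which encodes the neurofibromin that Spred proteins recruit, rose by 1.14 (SE 0.17, adjusted p = 8.97e-05) and 1.46 (SE 0.14, adjusted p = 3.78e-05), and Errfi1, an inhibitor of the EGF receptor, rose by 1.37 (SE 0.23, adjusted p = 2.77e-04) and 1.49 (SE 0.16, adjusted p = 6.99e-05). The same 9 genes were called in CD18wt Treg without the library that stood apart.

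Of 12 early genes downstream of ERK, 7 rose and 0 fell in CD18wt Treg (18.7% and 14.9% of all genes), and 8 rose and 2 fell in CD18Foxp3 Treg (20.9% and 17.6%), with medians of 0.97 and 1.10. Fosl1, a late member of the Fos family, rose by 5.50 (SE 0.37, adjusted p = 2.98e-07) in CD18wt and 6.17 (SE 0.37, adjusted p = 3.12e-06) in CD18Foxp3 Treg, from 0.584 ± 0.295 to 33.7 ± 1.48 TPM in the former (SD, n = 3). Myc was called in CD18wt Treg (1.87, SE 0.31, adjusted p = 0.00157), but not without the second (1.79) or the third (1.69) stimulated or the first unstimulated library (1.82). Ier3 was called as well (3.22, SE 0.87, adjusted p = 0.00932), and lost its call without the library that stood apart (2.76), any stimulated library (2.62 to 3.45) or the second unstimulated one (2.79). Myc and Ier3 were also called higher in CD18Foxp3 Treg, with means from 75.9 to 336.5 TPM and from 0.859 to 9.90 TPM (n = 3). Etv4, a transcription factor of the ETS family, averaged 0.0159 TPM in unstimulated and 5.89 ± 1.57 TPM (SD, n = 3) in stimulated CD18wt Treg, and was called higher in both genotypes, except in CD18Foxp3 Treg without the first unstimulated library (3.74, adjusted p = 0.0107). Fos and Fosb fell with Dusp1 in CD18Foxp3 Treg, with -6.18 (SE 0.38, adjusted p = 3.32e-06) and -6.23 (SE 0.28, adjusted p = 1.19e-06). In CD18wt Treg Fos (-7.54, adjusted p = 7.20e-08) and Fosb (-7.20, adjusted p = 6.45e-07) were called without the library that stood apart and not with it, and 5 of the 12 then rose and 2 fell. Between genotypes and in the interaction 0 of the 51 to 56 genes tested, of 59 in these 5 lists, were called by edgeR, DESeq2 or limma. By edgeR 6 of 51 in unstimulated Treg, 1 of 56 in stimulated Treg and 4 of 56 in the interaction had an unadjusted p under 0.05, beside 9.59%, 4.89% and 3.84% of all genes.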

How the data were processed

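Poly(A) RNA of sorted Treg was made into libraries with 15 cycles of PCR and a kit that does not mark strand, and sequenced in 59-base reads. The authors mapped the reads to GRCm38 in the CLC Genomics Workbench (no version is printed here) and deposited, per library, exon and intron read counts of each gene together with TPM values, which the tables write with a decimal comma. Total exon reads were 10665174 to 19005482 per library, intervals and limits from counts cover counting error only, and expression values equal to the exon reads were not used separately. Exon counts of the 2 groups of a comparison were tested with the edgeR (4.0.16) quasi-likelihood test in R (4.3.3) after filterByExpr (minimum count 10) and TMM normalization, and the interaction was fitted over all 12 libraries. Intron counts were tested likewise. P-values were adjusted over all genes tested (Benjamini-Hochberg), and a gene was called at a fold change of 1.5 and an adjusted p of 0.01. Alternatives were DESeq2 (1.42.0), limma (3.58.1) on log2(TPM + 1), other normalizations and filters, uniquely placed reads, a replicate block and leaving out each library. Fits of intron counts without single libraries, lists without the library that stood apart and the block within genotype were added after seeing the data. Tables were made in pandas (2.3.3) and figures in matplotlib (3.10.9) under Python (3.11.15), and the tests were tried on simulated data.

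The members and all lists were chosen with earlier results of these data known. All members are named, with up to 4 called genes per other list and stimulation comparison with the largest log2 fold change, and any called gene in the other comparisons. Some genes of these lists are counted but not reported here by name. Groups come from the sample labels. Promoter sequences are from RefSeq, and no promoter of Dusp4 and no protein sequence was analysed here.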

Additional observations from a re-analysis of the deposited data

How the results depend on the processing

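Counts of members called stayed within 1.5 times their value in 187 of 196 comparisons with an alternative. This share is no measure of robustness, since many of the counts were 0 in the main fit. Those between genotypes, in the interaction and of intron reads that rose were all 0, and such a count stays within the margin only by staying 0. The reads of the members were already uniquely placed, so that the alternative with uniquely placed reads left their read counts unchanged. The number that fell on stimulation in CD18wt Treg (1) was 2 with DESeq2, at an adjusted p of 0.05 and with all 12 libraries in 1 fit (Dusp1 added), 0 with limma on log2(TPM + 1) (Dusp10 lost), and 1 to 2 when single libraries were left out. The number lower in unstimulated CD18Foxp3 Treg (0) was 1 with no filter (Spred1), and 0 to 2 with single libraries left out. In intron reads the number that fell in CD18wt Treg (1) was 0 to 3 with single libraries left out. Over all genes, the counts higher and lower in unstimulated CD18Foxp3 Treg (6 and 10) were 34 and 52 with DESeq2, 60 and 74 with no filter, 0 and 1 with limma and 0 and 0 with all libraries in 1 fit. Those in stimulated Treg (0 and 0) were 17 and 5 with DESeq2 and 39 and 22 with no filter. Signs that turned belonged to values that passed no threshold, and the cause was not tested. With limma these were Dusp6 on stimulation (0.21 in both genotypes), Dusp1 (0.08) and Dusp2 (0.15) between genotypes in unstimulated Treg, and Dusp1 in the interaction (-0.20). Upper-quartile scaling gave -0.03 for Dusp2 on stimulation in CD18Foxp3 Treg and 0.01 for Spry1 in the interaction, as did DESeq2 size factors (0.01) for the latter. Leaving out single libraries gave ranges across 0 for Dusp6 (-0.46 to 0.02) on stimulation in CD18wt and Dusp2 (-0.16 to 0.18) in CD18Foxp3 Treg. Between genotypes they were -0.41 to 0.19 for Dusp2, -0.13 to 0.37 for Dusp10 and -0.23 to 0.10 for Spred2 in unstimulated Treg, and -0.18 to 0.03 for Dusp10 and -0.18 to 0.17 for Spred1 in stimulated Treg. In the interaction they were -0.38 to 0.08 for Dusp5, -0.17 to 0.31 for Dusp6, -0.44 to 0.06 for Dusp10, -0.30 to 0.38 for Spry1, -0.76 to 1.51 for Spry2 and -0.22 to 0.11 for Spred2. Spry2, with at most 14 reads, is limited by depth.

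Replicate numbers recur in all groups, but the labels do not say that a number marks 1 animal. The names of the deposited tables carry a second number that recurs between the 2 cultures of a genotype in the order of the replicates, and its meaning is not given in the sources used here. Same-numbered libraries deviated together in CD18Foxp3 Treg (correlations 0.070 to 0.158 between cultures) and not throughout in CD18wt Treg (0.102, -0.008 and -0.108). Between genotypes the values were -0.141 to 0.070, which cannot bear on pairing by animal, since 1 animal has 1 genotype. The labels do not say whether a number marks a shared day. The samples were taken to share a number only, although in CD18Foxp3 Treg every library correlated best with its own number. Whether the cultures were paired by animal was not settled. With a replicate block the log2 fold change of Dusp5, stimulation in CD18wt, was 1.25 (adjusted p = 0.0101) and no longer called, the log2 fold change of Spry1, stimulation in CD18Foxp3, was 0.59 (adjusted p = 0.00572) and called, Dusp2 between genotypes in unstimulated Treg turned to 0.10, and Spry2 in the interaction to 0.26 (0.34 with the block within genotype). Over all genes the block gave 16 higher and 25 lower in unstimulated CD18Foxp3 Treg.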
